A study of Homo sapiens with 7 samples.

Results

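FIBIN, CRISPLD1, PNMA8A and BMP3 were the 4 genes examined in HEK-293 cells kept in acidified medium. They were picked by their measured values: their estimated read counts were about 16-fold or more lower in acidosis than in control medium. They are 4 of the 19978 genes in the deposited count table, and all 4 were among the 14863 genes that passed the filter on low counts. The values in control and acidosis are therefore a description of how the genes were chosen, and no test is attached to them. The SRPIN340 samples were not used in the choice, and the SRPIN340 comparison was tested, although it shares its control samples with the acidosis comparison.

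HEK-293 is a cell line derived from human embryonic kidney and transformed with adenovirus DNA. The control group (2 samples) was kept for 48 h in Dulbecco's Modified Eagle Medium (DMEM) of pH 7.4 with DMSO. The acidosis group (3 samples) was kept for 48 h in acidified DMEM of pH 6.6, again with DMSO. The group given the inhibitor SRPIN340 (2 samples) was kept for 48 h in DMEM of pH 7.4 with 10 µM of this compound. Per the study's methods, this medium held the same share of DMSO. SRPIN340 selectively inhibits the SR protein kinases that phosphorylate SR-rich splicing factors. Polyadenylated RNA was sequenced in bulk from this 1 line, and the study's methods call the samples biological repeats. The methods also give 3 replicates for each repeat, whereas the deposited counts hold 1 column per sample. Each column was taken as 1 sample, and its relation to these replicates is not given. In bulk RNA, fewer cells that express a gene and less RNA per cell cannot be told apart.

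Library totals lay between 13615816 and 24110460 estimated counts, with the 2 smallest totals in acidosis. Levels are given as CPM, that is, relative to the library total after scaling by the trimmed mean of M-values (TMM), and 1 count corresponded to 0.0351 to 0.0918 CPM. A group mean is followed by ± and its SD, with n = 2 for control, n = 2 for SRPIN340 and n = 3 for acidosis throughout. All 9 genes of a list of HEK-293 markers (neurofilaments, keratins, vimentin and kidney transcription factors) were above 1 CPM in every sample, with a summed level of 1450 to 1503 CPM in control, 1451 to 1511 CPM with SRPIN340 and 3528 to 3545 CPM in acidosis. Most of the acidosis sum was VIM, at 867 ± 34.7 CPM in control and 2714 ± 36.2 CPM in acidosis. Of the 9, 2 were called higher in acidosis and 1, PAX2, lower (-1.93), and INA at -0.70, EYA1 at -0.37 and KRT18 at -0.26 were below 0. Of 10 marker genes of leukocytes, liver, endothelium, fibroblasts and astrocytes, 1 (COL1A1) was above 1 CPM in every sample and 2 were at 3 counts or fewer throughout, and their summed level was 31.8 to 33.7 CPM in control, 30.5 to 39.8 CPM with SRPIN340 and 59.3 to 67.1 CPM in acidosis. The part of these marker levels in the results was not tested.

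The genes lie on 4 chromosomes. On GRCh38, FIBIN occupies chr11:26994112-26997087 on the plus strand as a single exon of 2976 nt with 1 annotated transcript. CRISPLD1 occupies chr8:74984505-75034558 on the plus strand, with 15 exons in its canonical transcript of 4297 nt. PNMA8A occupies chr19:46466491-46471563 on the minus strand, with 3 exons and a transcript of 3684 nt. BMP3 occupies chr4:81030708-81057627 on the plus strand, with 3 exons, a transcript of 6087 nt and 1 annotated transcript. A long non-coding RNA gene on the opposite strand, ENSG00000254238, overlaps 3033 nt of the CRISPLD1 gene span, introns included. Whether exons of the genes overlap was not examined. The strand setting of the quantification is not given in the sources used here, so whether reads are shared between them is not known.

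The 4 genes belong to different families. FIBIN, the fin bud initiation factor homolog, encodes a secreted protein first described in the zebrafish, where it acts in the formation of the pectoral fin bud, the counterpart of the forelimb. CRISPLD1 encodes a secreted protein of the CAP superfamily, the group of cysteine-rich secretory proteins, antigen 5 and pathogenesis-related proteins. PNMA8A is a member of the paraneoplastic Ma antigen family, whose genes descend from the gag gene of a retrotransposon. BMP3 encodes a secreted ligand of the bone morphogenetic protein (BMP) family. BMP ligands bind paired type I and type II receptor kinases at the cell surface, the receptors phosphorylate SMAD proteins, and the SMADs switch on target genes such as those of the ID family. BMP3 differs from most BMPs in that it is known for opposing the bone-forming members.

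A RefSeq promoter entry was matched for 1 of the 4 genes, PNMA8A. Its 250 bases before the start of transcription (GRCh38.p14, chr19:46471564-46471813, minus strand, 5′ to 3′) are shown as the sequence from which the gene with the highest control level per transcript length is transcribed. Capitals mark a CCAAT box and a 9-base match described after it.
PNMA8A: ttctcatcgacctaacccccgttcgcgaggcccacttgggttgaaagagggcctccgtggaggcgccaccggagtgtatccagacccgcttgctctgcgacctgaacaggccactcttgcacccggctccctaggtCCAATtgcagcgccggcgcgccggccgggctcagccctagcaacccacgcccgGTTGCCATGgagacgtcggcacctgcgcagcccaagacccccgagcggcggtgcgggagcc
The stretch was 68.8% G and C with 25 CpG dinucleotides, against medians of 58% and 11 over all 35116 RefSeq windows of this length. On both strands the CCAAT box (CCAAT) matched once, at bases -114 to -110 from the start, and 32% of all windows hold it. GTTGCCATG, the letters that begin the X-box bound by RFX factors, matched at bases -61 to -53, and 0.746% of all windows hold it. This motif was looked for after the sequence had been read. The TATA box (TATAAA, in 10.7% of windows), the GC box (GGGCGG, 42.6%), the E-box (CACGTG, 6.34%), the AP-1 site (TGANTCA, 6.57%) and the cyclic AMP response element (TGACGTCA, 1.65%) had no match in these letters. A match is a description of the letters and not of binding.

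FIBIN was at 17.2 and 18.5 CPM in the control samples, at 19.9 and 21.3 CPM with SRPIN340, and at 0.772, 0.275 and 0.516 CPM in the acidosis samples. These acidosis levels rest on estimated counts of 13.3, 2.87 and 5.77. Every acidosis sample was far below every other sample, and both SRPIN340 samples were slightly above both controls. The group means were 17.8 ± 0.881 CPM in control, 20.6 ± 1.04 CPM with SRPIN340 and 0.521 ± 0.248 CPM in acidosis. The acidosis mean was thus 2.92% of the control mean, and the lowest control sample was 22.3-fold above the highest acidosis sample.

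CRISPLD1 was at 15.4 and 23.8 CPM in control, at 21.1 and 18.9 CPM with SRPIN340, and at 1.31, 0.734 and 0.774 CPM in acidosis, from 21.7, 7.74 and 9.12 estimated counts. Its control samples spread the most of the 4 genes, with a mean of 19.6 ± 5.95 CPM, and both SRPIN340 samples lay between them. The SRPIN340 mean was 20.0 ± 1.54 CPM and the acidosis mean 0.938 ± 0.319 CPM, which is 4.78% of control. The lowest control sample was 11.8-fold above the highest acidosis sample.

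PNMA8A was at 33.9 and 33.1 CPM in control, at 43.97 and 47.98 CPM with SRPIN340, and at 2.49, 1.74 and 1.63 CPM in acidosis, from 42.3, 19.2 and 19.0 estimated counts. Its 3 groups did not overlap, with SRPIN340 the highest and acidosis the lowest. The means were 33.5 ± 0.562 CPM in control, 46.0 ± 2.84 CPM with SRPIN340 and 1.96 ± 0.468 CPM in acidosis. Acidosis was at 5.85% of control, with a 13.3-fold gap between the lowest control and the highest acidosis sample.

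BMP3 was at 21.7 and 18.5 CPM in control, at 15.001 and 16.2 CPM with SRPIN340, and at 1.07, 1.74 and 0.946 CPM in acidosis, from 18.1, 19.2 and 10.6 estimated counts. Its 3 groups did not overlap either, but here both SRPIN340 samples were below both controls. The means were 20.1 ± 2.28 CPM in control, 15.6 ± 0.881 CPM with SRPIN340 and 1.25 ± 0.430 CPM in acidosis. BMP3 in acidosis was at 6.24% of control, and the gap between the lowest control and the highest acidosis sample was 10.6-fold, the narrowest of the 4.

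**Figure D1:**
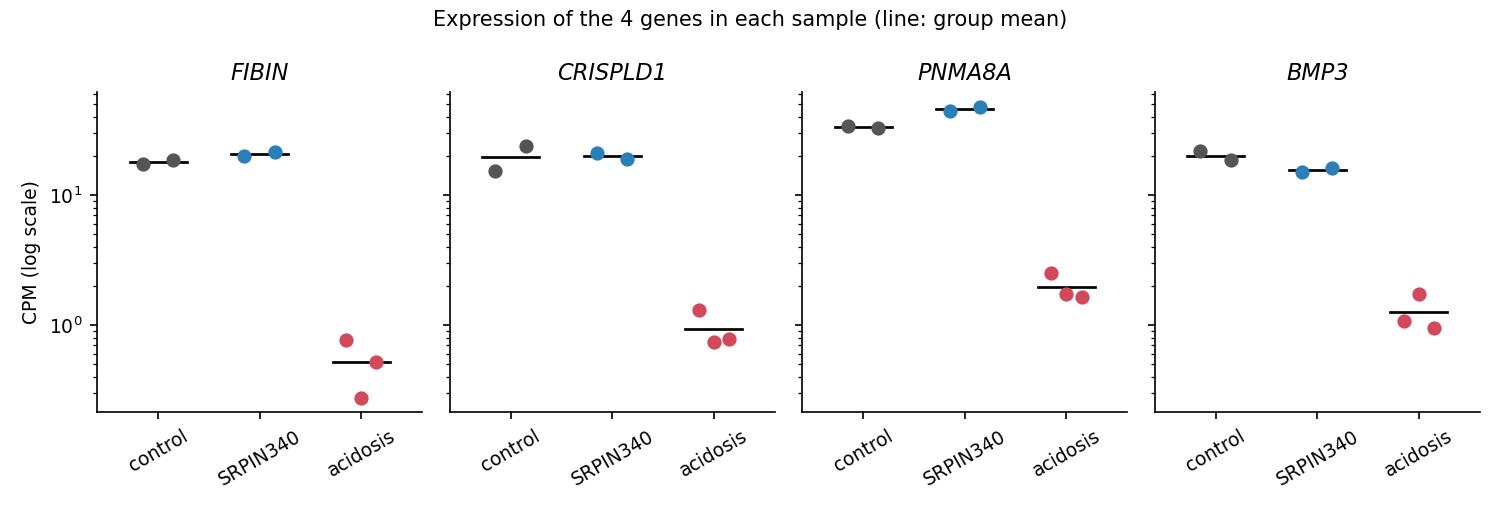
CPM of FIBIN, CRISPLD1, PNMA8A and BMP3 in each sample (vertical axis, log scale) by group (horizontal axis); points are samples and lines are group means. For each gene the 3 acidosis samples sit at 0.275 to 2.49 CPM and all other samples at 15.001 to 47.98 CPM.

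The plot of CPM by sample shows that none of the 4 genes was at 0 in acidosis. Summed over the 3 acidosis samples, the rounded counts were 22 for FIBIN (exact Poisson 95% interval 13.8 to 33.3), 39 for CRISPLD1 (27.7 to 53.3), 81 for PNMA8A (64.3 to 101) and 48 for BMP3 (35.4 to 63.6). These intervals cover counting error only. FIBIN, with the fewest counts, had the least precise acidosis level, with a coefficient of variation of 47.7% between its samples, against 23.9% for PNMA8A.

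Divided by transcript length, PNMA8A had the highest control level at 9.08 ± 0.152 CPM per kb, followed by FIBIN at 6.00 ± 0.296, CRISPLD1 at 4.57 ± 1.39 and BMP3 at 3.30 ± 0.374 CPM per kb. CRISPLD1 differed from its neighbours in this order by less than their added SDs. In acidosis, PNMA8A remained the highest at 0.531 ± 0.127 CPM per kb. CRISPLD1 at 0.218 ± 0.0743, BMP3 at 0.206 ± 0.0706 and FIBIN at 0.175 ± 0.0834 CPM per kb differed by less than 1 SD from each other.

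In the fit over all genes, edgeR gave log2 fold changes in acidosis of -5.00 for FIBIN (SE 0.251), -4.32 for CRISPLD1 (SE 0.280), -4.05 for PNMA8A (SE 0.167) and -4.02 for BMP3 (SE 0.226). FIBIN thus had the deepest fall of the 4, with its control mean 34.2-fold above its acidosis mean, against 20.9-fold for CRISPLD1, 17.1-fold for PNMA8A and 16.02-fold for BMP3. Calls required more than a 2-fold change in either direction together with an adjusted p (Benjamini-Hochberg) below 0.05. By this rule 19.1% of the tested genes (2840) were called lower in acidosis and 14.4% (2145) higher, and a called fall of over 16-fold was found for 0.565% (84 genes). All 4 genes are among these by the way they were chosen, and nothing is read from that. With scaling to the total count alone, 5202 genes were called lower and 815 higher, and the median log2 fold change of all tested genes moved from -0.052 to -0.63.

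The fold limit alone leaves 84 genes, of which the 4 are a listed part, so nothing is read from how their counts differ from the rest. Among the 84, 62 were at 3 counts or fewer in every acidosis sample. A mean of at least 10 CPM over the 7 samples, which rests on the control and SRPIN340 samples, was reached by 5. Those 5 were the 4 genes and IFIT1, an interferon-induced antiviral gene with a log2 fold change of -5.18. Just outside the 16-fold limit at this level were PLXDC2, which encodes a membrane protein with a plexin domain, at -3.999 and the interferon-induced IFIT3 at -3.97. BMP3, at -4.02, was the member just inside the limit, and its distance to PLXDC2 was a small part of the SE of either gene. With SRPIN340, the log2 fold change was -2.16 for IFIT1 (edgeR adjusted p = 0.000463) and -1.96 for IFIT3 (edgeR adjusted p = 0.00225). PLXDC2 at 0.12 did not pass with SRPIN340 (edgeR adjusted p = 0.769).

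**Figure D2:**
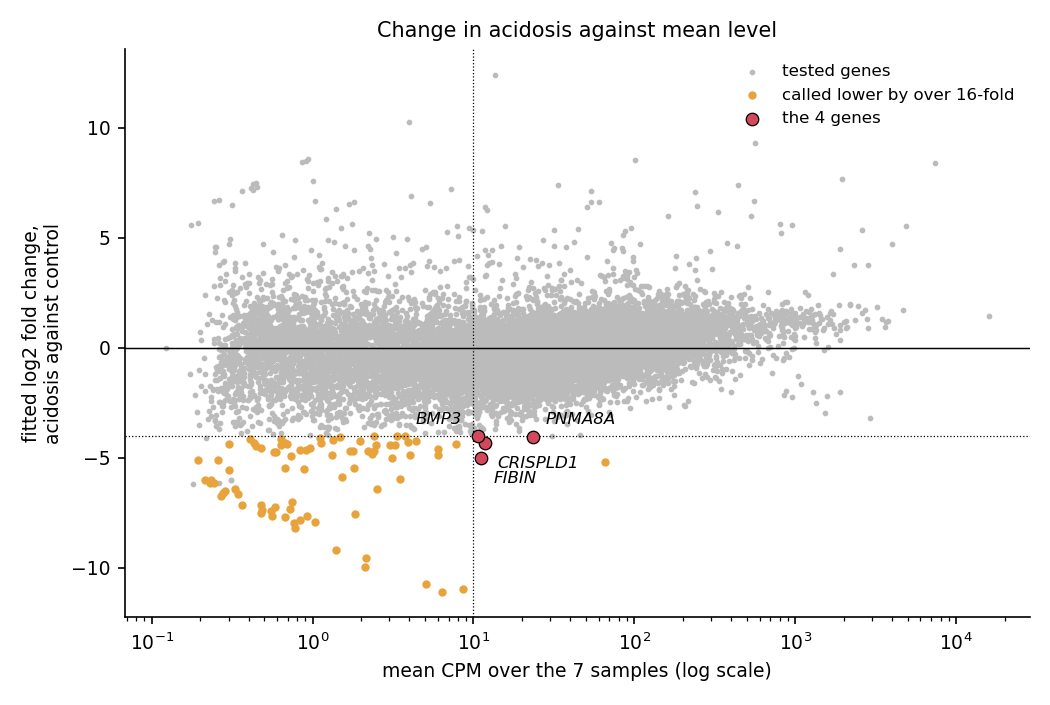
Fitted log2 fold change in acidosis against control (vertical axis) by mean CPM over the 7 samples (horizontal axis, log scale) for the 14863 tested genes; orange points are called falls of over 16-fold, red points the 4 genes, and dotted lines mark 10 CPM and a 16-fold fall. Of the 84 deep falls, 5 lie right of 10 CPM, and deeper falls at lower levels include fitted values against counts at or near 0.

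The plot of change by level places the 4 genes at the right-hand edge of the deep falls. Fitted values far below those of the 4 genes belong to genes with few or no counts in acidosis and depend on the small count that edgeR adds before taking logarithms.

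The SRPIN340 comparison asked whether an SR protein kinase inhibitor at normal pH moved the same genes. Of all tested genes, 0.323% (48) were called with SRPIN340, and 2.3% (342) had an adjusted p under 0.05 whatever the fold. The 48 calls became 11 without SRPIN340 replicate 1, 24 without SRPIN340 replicate 2, 29 without control replicate 1, 26 without control replicate 2 and 72 with the 2 groups fitted alone. Of the 4 genes, 0 were called and 0 passed the adjusted p alone with edgeR. At an unadjusted p under 0.05, 1 of the 4 passed, PNMA8A, as did 2621 of all tested genes.

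PNMA8A had the largest difference, a log2 fold change of 0.46 (95% interval 0.14 to 0.78) with both SRPIN340 samples above both controls, and its adjusted p was 0.136 (edgeR, unadjusted p = 0.00993). Fitted on the control and SRPIN340 samples alone, the value was again 0.46 and passed with an adjusted p of 0.0440 (edgeR), and over all alternatives the adjusted p ranged from 0.0440 to 0.601. BMP3 went the other way at -0.36 (-0.80 to 0.07) with both SRPIN340 samples below both controls (edgeR adjusted p = 0.380). FIBIN was at 0.21 (-0.22 to 0.63), also without overlap (edgeR adjusted p = 0.634). Such separation of 2 samples from 2 was not counted over all tested genes, and nothing is read from it. CRISPLD1 was at 0.03 (-0.49 to 0.54) with overlapping groups (edgeR adjusted p = 0.974), and its sign turned when control replicate 1 (-0.25) or SRPIN340 replicate 1 (-0.053) was left out. For none of the 4 did the 95% interval reach a 2-fold change in either direction.

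Set beside the acidosis samples, which were used in choosing the genes, the SRPIN340 samples were higher by 39.5-fold for FIBIN, 21.3-fold for CRISPLD1, 23.5-fold for PNMA8A and 12.5-fold for BMP3 as ratios of mean CPM. PNMA8A and BMP3, with similar falls from control, had SRPIN340 means on opposite sides of control. Neither of these SRPIN340 differences passed in the fit over all 7 samples, and the genes were not compared with each other by a test.

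**Figure D3:**
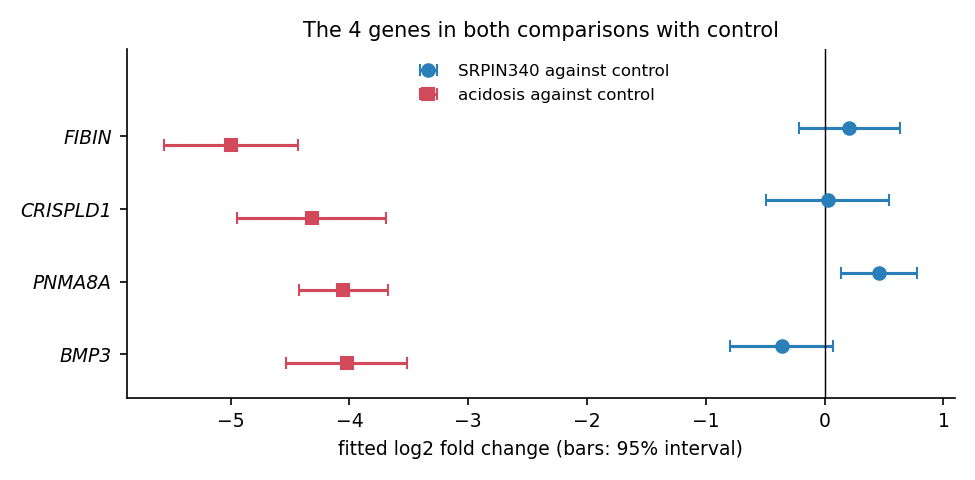
Fitted log2 fold change (horizontal axis) of the 4 genes with SRPIN340 (blue circles) and in acidosis (red squares) against the same control samples, with 95% intervals as bars. The SRPIN340 values lie between -0.36 and 0.46, and the acidosis values, which chose the genes, between -5.00 and -4.02.

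In the plot of both comparisons, PNMA8A has the narrowest interval in each comparison and CRISPLD1 the widest. Every acidosis interval is separate from the SRPIN340 interval of the same gene, a distance that the choice of the genes fixes.

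The other genes of each family and pathway were examined from lists that leave out the 4 genes. Together the lists held 109 genes, of which 80 were tested. In acidosis, 22 of the 80 (27.5%) were called lower and 14 (17.5%) higher, against 19.1% and 14.4% of all tested genes. Counts given below for scaling to the total count have their own background. Under that scaling, 5202 of all 14863 tested genes were called lower and 815 higher. With SRPIN340, 6 of the 80 passed the adjusted p and 2 were called, against 2.3% and 0.323% of all tested genes. The deepest fitted fall among the 80 with a mean of at least 1 CPM was that of BMP4. That the 4 genes fell further than genes at this level follows from how they were chosen. PNMA8B, under this level, had 0 counts in acidosis.

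Of the other members of the PNMA family, 9 of 13 were tested. In acidosis 4 of them were called lower and 0 higher (5 and 0 with scaling to the total count), with a median log2 fold change of -0.78 (-1.35 with that scaling). PNMA6A fell by 1.78 on the log2 scale, from 3.28 ± 1.12 CPM in control to 0.964 ± 0.280 CPM, although reads of the near-identical PNMA6 copies may be divided uncertainly between them. CCDC8, a partner of the ubiquitin ligase subunit CUL7, was at 33.7 ± 0.415 CPM in control and fell by 1.24 (edgeR adjusted p = 1.69e-05). ZCCHC12, a zinc-finger member, fell by 1.10 in acidosis (edgeR adjusted p = 6.26e-06) and rose by 0.64 with SRPIN340 (edgeR adjusted p = 0.0183). PNMA1, the founding antigen, was at 0.46 in acidosis, which turned to -0.11 with scaling to the total count, and fell by 0.39 with SRPIN340 (edgeR adjusted p = 0.0498, and 0.0719 with scaling to the total count). PNMA8B, the closest neighbour of PNMA8A, was called lower as well and is described with the neighbouring genes.

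Of the other CAP superfamily genes, 6 of 14 were tested, 0 were called lower and 1 higher (3 and 0 with scaling to the total count), with a median of -0.63 (-1.21 with that scaling). The 8 untested genes had at most 12.3 counts in any sample. GLIPR1, a membrane-bound CAP protein, was higher in both comparisons: 6.24 ± 0.139 CPM in control, 13.4 ± 2.63 CPM with SRPIN340 and 18.0 ± 3.26 CPM in acidosis. Its log2 fold changes were 1.53 in acidosis (edgeR adjusted p = 0.000104) and 1.10 with SRPIN340 (edgeR adjusted p = 0.0373), though with scaling to the total count the first was 0.96. CRISPLD2, the closest relative of CRISPLD1, was at 1.19 ± 0.506 CPM in control and 1.34 ± 0.357 CPM in acidosis, a difference within the spread of the samples.

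The genes of limb bud initiation, the process for which FIBIN is named, were mixed. Of 18 tested genes of 24, 7 were called lower and 2 higher (11 and 0 with scaling to the total count), with a median of -0.99 (-1.56 with that scaling). FGFR2, a receptor of fibroblast growth factors, fell by 2.22 on the log2 scale (edgeR adjusted p = 1.01e-05), and ISL1, a LIM-homeodomain transcription factor of the hindlimb field, fell by 2.11 (edgeR adjusted p = 9.05e-06). GLI3, a transcription factor of Hedgehog signalling, rose by 1.36 (edgeR adjusted p = 1.87e-07) and ALDH1A2, which makes retinoic acid, rose by 1.08 (edgeR adjusted p = 5.56e-07). With scaling to the total count both stayed above 0, at 0.78 and 0.50, but were no longer called. CTNNB1, which encodes β-catenin, was called lower in acidosis at -1.57 and passed with SRPIN340 at -0.35 (edgeR adjusted p = 0.0383). TBX5, the forelimb transcription factor with which FIBIN is linked in the fish, was not tested, with at most 6.10 counts in any sample.

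BMP3 was not the only BMP ligand called lower. Among 14 other tested ligands of the BMP and activin group, calls in acidosis were lower for 7 (50%) and higher for 1 (7.14%), or 9 and 1 with scaling to the total count, with a median of -1.36 (-1.94 with that scaling). BMP4 was at 7.69 ± 0.538 CPM in control and 0.769 ± 0.0794 CPM in acidosis, a log2 fold change of -3.32 (edgeR adjusted p = 2.56e-06). GDF6, a ligand of joint and skeletal patterning, fell by 3.11 (edgeR adjusted p = 0.000294). INHBA, which encodes the subunit of activin A, was the ligand called higher, at 1.35 ± 0.226 CPM in control and 32.8 ± 3.73 CPM in acidosis, a log2 fold change of 4.60 (edgeR adjusted p = 9.79e-08). BMP2, at 0.98, lay just under the 2-fold limit (edgeR adjusted p = 9.23e-05) and was at 1.00 with the size factors of DESeq2, where 2 ligands were called higher. With SRPIN340, 0 of the 14 passed the adjusted p. BMP8A and BMP8B, both called lower, are near-identical copies whose reads may be divided uncertainly, and BMP8A did not pass with DESeq2 (adjusted p = 0.0617).

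Among the receptors and co-receptors, 4 of 11 tested were called lower and 2 higher (4 and 0 with scaling to the total count), with a median of -0.18 (-0.76 with that scaling). The type I receptor BMPR1A fell by 1.55 (edgeR adjusted p = 4.67e-06) and the co-receptor RGMA fell by 1.49 (edgeR adjusted p = 7.95e-06). The activin receptors ACVR1B (type I) and ACVR2A (type II) rose by 1.54 (edgeR adjusted p = 2.21e-07) and 1.23 (edgeR adjusted p = 0.000327). With scaling to the total count these rises were 0.97 and 0.66.

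The antagonists and the signal transducers and targets lay on the other side. Of 12 tested antagonists, 0 were called lower and 4 higher, with a median of 0.67, and of 10 tested SMAD and ID genes, 0 were called lower and 4 higher, with a median of 0.63. With scaling to the total count these medians were 0.093 and 0.055, 3 antagonists were called higher and 2 lower, and 2 SMAD and ID genes were called higher and 0 lower. FSTL3, a secreted binder of activins, rose by 2.73 (edgeR adjusted p = 7.65e-07) and SMAD7, an inhibitory SMAD, by 2.58 (edgeR adjusted p = 8.31e-09). The target genes ID3 and ID1, which encode inhibitors of helix-loop-helix transcription factors, rose by 2.64 (edgeR adjusted p = 7.89e-07) and 2.34 (edgeR adjusted p = 0.000140). With SRPIN340, GREM1, a secreted BMP antagonist, was called higher at 1.09 (edgeR adjusted p = 0.0278), SMAD7 passed at -0.38 (edgeR adjusted p = 0.0384, and 0.0530 with scaling to the total count), and 0 of the transducers and targets passed.

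**Figure D4:**
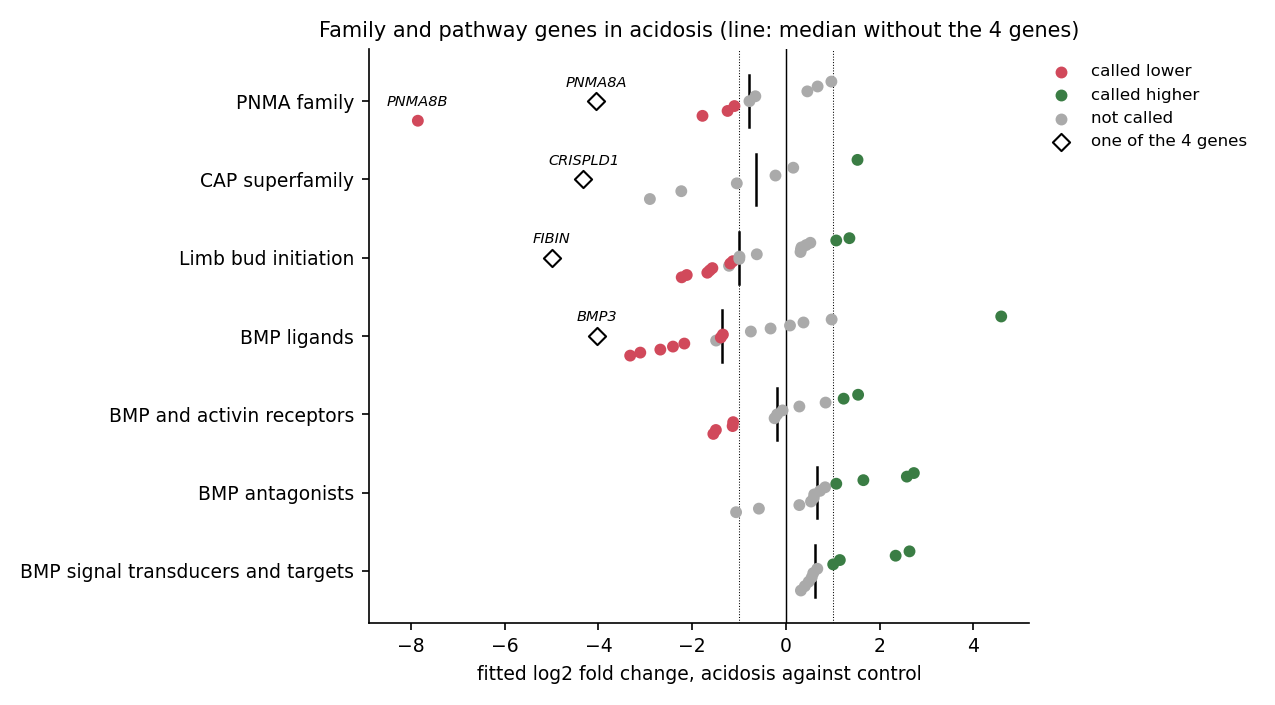
Fitted log2 fold change in acidosis against control (horizontal axis) of each tested gene in the 7 family and pathway lists (rows), coloured by call; diamonds are the 4 genes, vertical strokes are list medians without them, and dotted lines mark a 2-fold change. The BMP ligands have a median of -1.36 and the SMAD and ID genes one of 0.63, and the far left point, PNMA8B, had 0 counts in acidosis, so its fitted value is not a bound.

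The plot of the lists shows each diamond at the left of its row except for PNMA8A, where PNMA8B is fitted lower from far fewer counts. The lists were written with results of these data known, and their counts describe these genes only.

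The genes next to the 4 on their chromosomes were compared to see whether the falls extended to their surroundings. Of the 16 nearest tested protein-coding genes, 2 on each side, 4 (25%) were called lower in acidosis, 2 higher and 10 were not called, against 19.1% of all tested genes called lower, and 0 passed with SRPIN340. The neighbours' median log2 fold change was -0.57, against -0.052 over all tested genes. With scaling to the total count it was -1.14, against -0.63. By that scaling 5 neighbours were called lower and 1 higher, against 5202 and 815 of all 14863 tested genes.

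Beside FIBIN, the nearest tested genes were at very low levels: SLC5A12, 271 kb before it, at 0.66 and BBOX1, 43.6 kb after it, at -0.74 did not pass the test. CCDC34, 334 kb after it, was called lower at -1.01 (edgeR adjusted p = 1.74e-05), a value at the limit of the call, which became -0.98 with the size factors of DESeq2. SVIP, the second tested gene before FIBIN, lay 4164 kb away at 0.10 (-0.47 with scaling to the total count). The closest well-expressed neighbours of FIBIN therefore had log2 fold changes of 0.10 and -1.01 beside its own of -5.00.

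None of the 4 tested neighbours of CRISPLD1 was called. They lay 466 kb (GDAP1) and 663 kb (JPH1) before it and 373 kb (HNF4G) and 1647 kb (ZFHX4) after it. Between CRISPLD1 and GDAP1 lies 1 protein-coding gene that was not tested. JPH1 at -0.28 and HNF4G at -1.14 did not pass the adjusted p, and GDAP1 at -0.39 and ZFHX4 at -0.32 passed it (edgeR adjusted p = 0.0207 and 0.0302) with falls under 2-fold. ZFHX4, which encodes a large zinc-finger and homeobox transcription factor, was at 51.4 ± 6.14 CPM in control and 41.1 ± 3.91 CPM in acidosis.

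PNMA8A sits among other genes of its own family on chromosome 19. PNMA8B, 15.3 kb away on the same strand, was at 1.35 ± 0.0759 CPM in control and 1.56 ± 0.323 CPM with SRPIN340 and had 0 counts in all 3 acidosis samples. Against a floor of 3 counts over the acidosis group, it was at least 17.7-fold lower than in control. PNMA8C, 37.6 kb away on the other side, was at 0.497 ± 0.0412 CPM in control and 0.838 ± 0.694 CPM in acidosis, with a log2 fold change of 0.68 that did not pass the test (edgeR adjusted p = 0.453). Like PNMA8B, CCDC8, which lies beyond PNMA8C, was called lower, at -1.24 as given above. CALM3, which encodes calmodulin, lay 130 kb beyond PNMA8A on the other side and rose by 1.03 (edgeR adjusted p = 2.96e-07), or by 0.46 with scaling to the total count.

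Beside BMP3, FGF5, a fibroblast growth factor, was called lower at -1.36 (edgeR adjusted p = 0.00290), from 6.69 ± 0.977 CPM in control to 2.65 ± 1.21 CPM in acidosis. CFAP299 at -1.75 and PRKG2 at -1.30 were under 1 CPM on average and were not called (edgeR adjusted p = 0.0508 and 0.204). RASGEF1B, an exchange factor of the Ras family 369 kb after BMP3, rose by 1.65 (edgeR adjusted p = 1.03e-05), from 5.84 ± 0.408 CPM to 18.3 ± 0.458 CPM, and stayed at 1.07 with scaling to the total count. The directly adjacent genes on both sides of BMP3 were thus fitted below 0 without passing, and the called genes, 1 on each side, moved in opposite directions.

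**Figure D5:**
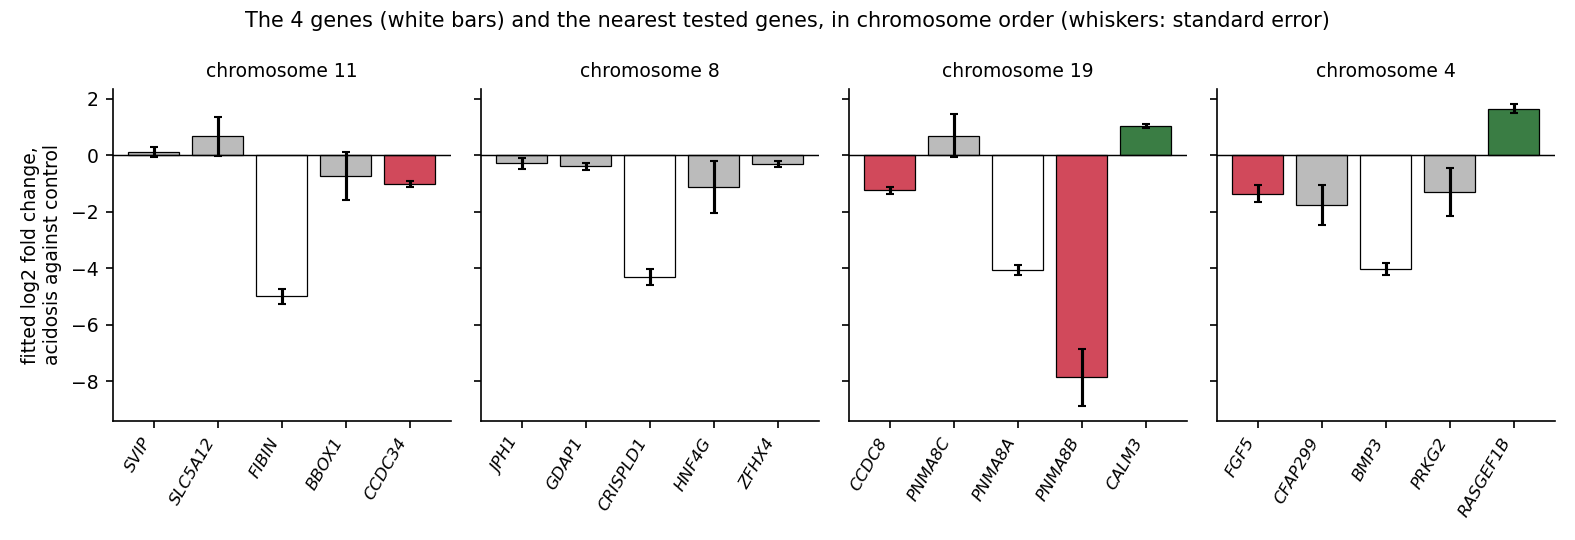
Fitted log2 fold change in acidosis against control (vertical axis) of the 4 genes (white bars) and the 2 nearest tested protein-coding genes on each side, in chromosome order; red bars are called lower, green called higher, grey not called, and whiskers are SEs. Apart from PNMA8B, which had 0 counts in acidosis and whose fitted value is not a bound, the neighbours lie between -1.75 and 1.65.

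The plot of the neighbours shows the 4 genes well below the genes around them, a distance that the choice of the genes largely fixes. PNMA8B was the exception, as the only one of the 16 neighbours whose fitted value was lower than that of the gene it flanks. SLC5A12, BBOX1, HNF4G, PNMA8C, CFAP299 and PRKG2 were under 1 CPM in control, so they had few counts in which a deep fall could show.

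In the annotation, the 4 genes shared few features. FIBIN, with its single exon, is one of 371 tested single-exon genes (2.5% of those with a gene model), and 10 of the 84 deep falls have a single exon. Of the 371, 23.2% were called lower in acidosis and 27.8% higher, against 19.1% and 14.4% of all tested genes. PNMA8A and BMP3 with 3 exons were below the medians of 9 exons over all tested genes and 4 over the 84, whereas CRISPLD1 with 15 was above both. FIBIN and BMP3 had 1 annotated transcript, PNMA8A 3 and CRISPLD1 5, against a median of 8 over all tested genes and 2 over the 84. The 3′ untranslated regions were longer than the median of 1342 nt in all 4 genes, at 1925 nt for FIBIN, 2316 nt for CRISPLD1, 2058 nt for PNMA8A and 4091 nt for BMP3, while the median over the 84 was 1065.5 nt. The G and C content of the transcripts ran from 38.9% for CRISPLD1 through 40.1% for BMP3 and 44.8% for FIBIN to 51.5% for PNMA8A, on both sides of the median of 48.6%.

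Genes with the most similar course over the 7 samples were sought among 13460 genes whose mean reached 1 CPM. They were found from log2 CPM, with a prior count of 1, centred on the control mean, by the smallest root mean square (RMS) difference. For FIBIN these were FAM13C (RMS difference 0.330), TMEM121 (0.413) and TRANK1 (0.414). CRISPLD1 was closest to RTN4RL1 (0.267), HEXIM2 (0.284) and PNMA8A (0.337), and PNMA8A to RTN4RL1 (0.281), HEXIM2 (0.305) and SMIM10L2B (0.317). BMP3 had the closest match of all, PRSS35 (0.173), followed by the T-box factor EOMES (0.261) and NMI (0.295). Among themselves, CRISPLD1 and PNMA8A were the most alike at 0.337 and FIBIN and BMP3 the least at 0.965, in units of log2 CPM over 7 samples.

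PRSS35, a protease-like secreted protein, was at 7.91 CPM in control, 6.75 CPM with SRPIN340 and 0.428 CPM in acidosis, which is the order of the groups in BMP3 too. RTN4RL1, a Nogo receptor relative named for both CRISPLD1 and PNMA8A, was at 3.89, 4.48 and 0.169 CPM in the same order. In acidosis TMEM121 was at 0.0880 CPM and SMIM10L2B at 0.129 CPM. So close to 0, the prior count limits how deep a fall can appear in log2 CPM. The similarity rests mainly on the depth of the fall in acidosis, by which the 4 genes were chosen, and says nothing of shared function or control.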

How the data were processed

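RNA-seq libraries of 7 HEK-293 samples were compared as control, acidosis and SRPIN340 groups taken from the sample labels. The authors trimmed reads with Trimmomatic 0.39 and Trim Galore 0.6.6 (versions per the submitters' processing notes), ran Salmon 1.5.1 on the Gencode GRCh38.p13 transcripts and aggregated the result by gene in tximport, whose option is not given in the sources used here. The deposited table holds estimated counts of each gene, with no normalization across samples. Of 19978 identifiers, 19977 had a symbol in GENCODE v44, which also gave gene models and lengths.

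Counts were rounded and tested with edgeR 4.0.16 (R 4.3.3): TMM scaling, filterByExpr, 1 quasi-likelihood fit over all 7 samples by group, Benjamini-Hochberg adjustment over 14863 genes. The limits for a call were an adjusted p of 0.05 and an absolute log2 fold change of 1. CPM were computed from rounded counts, and SEs and 95% intervals from the test statistic. The procedure was checked on simulated counts with 200 changed genes. These are far fewer than were called in acidosis, so the check does not bear on the scaling of that comparison. P-values measure the spread between these samples only.

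The 4 genes and all lists were chosen with earlier results of these data known. Besides the 4 genes, the text names by rule the 2 highest and 2 lowest called genes of each list with a mean of at least 1 CPM, list genes that passed with SRPIN340, the 2 nearest tested genes on each side, the 3 most similar profiles, and genes near the 16-fold limit with a mean of at least 10 CPM. Of the last, 1 gene outside the limit is not reported here. CRISPLD2, TBX5, BMP2, BMP8A, BMP8B and the PNMA6 copies were named after their values were seen. All replicate pairs differed by more than sampling noise (chi-square per degree of freedom 6.77 to 12.0). Alternatives were DESeq2 1.42.0, other scalings and filters, unrounded counts, the 2 groups compared alone, a replicate block and leaving out each sample.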

Additional observations from a re-analysis of the deposited data

How the results depend on the processing

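Over 27 results and 15 alternatives, 369 of 404 values kept their direction and side of the threshold, or moved by less than the limit set for a description or a count. With scaling to the total count alone, the acidosis values of PNMA8A and BMP3 were -4.63 and -4.60, and 5202 genes were called lower and 815 higher, since that scaling shifts the median of all genes. Over the samples left out in turn, the acidosis log2 fold change ranged from -5.46 to -4.73 for FIBIN, -4.69 to -3.99 for CRISPLD1, -4.30 to -3.94 for PNMA8A and -4.29 to -3.88 for BMP3. With SRPIN340, CRISPLD1 ranged from -0.25 to 0.37 when 1 sample was left out, and it turned negative without control replicate 1 (-0.25) and without SRPIN340 replicate 1 (-0.053). PNMA8A passed with SRPIN340 when the 2 groups were fitted alone (0.46, edgeR adjusted p = 0.0440), and the cause was not tested. DESeq2 gave BMP3 no adjusted p with SRPIN340 (log2 fold change -0.37).

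The 48 calls with SRPIN340 became 11 to 66 when 1 sample was left out: 11 without SRPIN340 replicate 1, 24 without SRPIN340 replicate 2, 29 without control replicate 1 and 26 without control replicate 2, each with a lone sample assumed to vary like the other groups. With the replicate number as a block they became 27. Same-numbered samples did not deviate together (correlations -0.17 to 0.085). This does not settle whether the numbers pair the samples, since a group of 2 samples gives mirrored deviations. Small list counts moved by 1 to 4 genes in 23 other cases, and the cause was not tested. Depth limits the acidosis levels: 1 count in acidosis was 0.0594 to 0.0918 CPM, and FIBIN had 22 counts in all.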
